A study of Homo sapiens with 4 samples.

Results

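The 10 genes described here carry the cellular response to low oxygen, and they were followed in cells labelled HepG2 with and without ZCCHC4. They are HIF1A, EPAS1, VHL, EGLN1, EGLN3, CA9, VEGFA, ADM, NDRG1 and BNIP3. They were chosen by name, with earlier results of these data known. All 10 had a row among the 16658 genes of the deposited expression table. RNA-seq covered WT and ZCCHC4 KO1 cells without any drug, with 2 libraries of each. HepG2 is a cell line from a human liver tumor, and ZCCHC4 KO1 is 1 of the lines in which the study knocked out ZCCHC4, an RNA-binding protein, with CRISPR/Cas9. Both groups were grown to the same confluence, and no label names a low-oxygen treatment. The labels do not give the oxygen at the cells, so their oxygen state is not known here. With 1 knockout line, effects of the knockout and of the line cannot be told apart. Nothing in the labels says whether the 2 libraries of a group came from separate cultures, so the p-values measure only the spread between libraries, which may be technical.

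Cells sense oxygen through hypoxia-inducible factor (HIF), a pair of proteins of which the alpha subunit is made and destroyed without pause while oxygen is plentiful. Prolyl hydroxylases of the EGLN family mark the alpha subunit, and the VHL protein then directs its degradation. When oxygen falls the alpha subunit persists, joins ARNT and binds the short DNA word ACGTG or GCGTG near its target genes, which serve glucose use, vessel growth, acid export and mitochondrial turnover. The amount of HIF1A protein is thus set largely after the mRNA is made, and mRNA alone was measured here.

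The DNA word was looked for in the windows from 250 bases before to 50 bases after the gene start, taken from RefSeq for GRCh38.p14. A window was at hand for 7 of the 10 genes, and none for VHL, VEGFA and NDRG1. On either strand, ACGTG was in a window of 3 of the 7 genes (EGLN1, CA9 and BNIP3), and in 26.1% of 12928 windows of the tested genes. GCGTG was found for 4 of the 7 (HIF1A, EPAS1, ADM and BNIP3) and in 49.6% of those windows. The 3 windows with ACGTG are shown, 5′ to 3′ along the gene, because the element is the landmark by which these genes are known as HIF targets. Capitals mark ACGTG or its reverse complement CACGT.
CA9, chr9:35673678-35673977, plus strand: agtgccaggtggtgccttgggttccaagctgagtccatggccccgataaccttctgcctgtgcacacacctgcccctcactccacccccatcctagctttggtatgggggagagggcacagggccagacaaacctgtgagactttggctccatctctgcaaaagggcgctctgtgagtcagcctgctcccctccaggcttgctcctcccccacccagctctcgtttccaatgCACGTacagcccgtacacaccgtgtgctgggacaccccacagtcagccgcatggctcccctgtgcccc
EGLN1, chr1:231422238-231422537, minus strand: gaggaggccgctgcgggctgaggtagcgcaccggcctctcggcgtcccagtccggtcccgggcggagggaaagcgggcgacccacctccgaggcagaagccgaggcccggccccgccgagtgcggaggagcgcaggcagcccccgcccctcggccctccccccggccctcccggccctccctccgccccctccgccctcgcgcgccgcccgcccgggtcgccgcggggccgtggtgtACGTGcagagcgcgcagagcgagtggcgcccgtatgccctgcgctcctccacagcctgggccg
BNIP3, chr10:131981874-131982173, minus strand: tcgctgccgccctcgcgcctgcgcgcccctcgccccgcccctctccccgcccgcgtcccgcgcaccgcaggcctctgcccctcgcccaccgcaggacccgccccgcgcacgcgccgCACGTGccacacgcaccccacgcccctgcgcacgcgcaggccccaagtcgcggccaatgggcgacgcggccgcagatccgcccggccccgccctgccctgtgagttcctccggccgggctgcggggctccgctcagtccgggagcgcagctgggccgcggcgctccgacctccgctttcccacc
With the base just before the gene start counted as -1, the match in CA9 began at -18 and was on the opposite strand, and that in EGLN1 began at -13 on the gene's strand. In BNIP3 the matches of both strands overlapped in the single word CACGTG, which began at -134, and 4 matches of CACGC, the reverse complement of GCGTG, began between -143 and -104. A match describes the letters only and not the binding of a factor.

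Expression was deposited as FPKM, a count of fragments scaled to transcript length and library size, which allows levels of different genes to be set side by side. The comparison used limma on log2(FPKM + 1) over 10726 genes with an FPKM of 1 or more in at least 2 libraries, and all 10 hypoxia genes passed this filter. A gene was called at a Benjamini-Hochberg adjusted p under 0.05. By that rule 480 genes were lower and 161 higher in ZCCHC4 KO1 cells, against 721 and 466 after quantile normalization and 1464 and 1373 after removal of the GC trend described below. ZCCHC4 itself was at 7.22 and 5.44 FPKM in WT against 1.08 and 2.29 in ZCCHC4 KO1 (adjusted p = 0.0448 from limma), with all ZCCHC4 KO1 values below all WT values. Of 16 hepatocyte markers, among them ALB and AFP, 8 had a row and 0 reached an FPKM of 1 in every library, which goes against the label HepG2. Of 6 fibroblast markers, 4 reached that level in every library, and the sum over all 6 was 26.16 to 27.43 FPKM in WT and 11.2 to 14.06 in ZCCHC4 KO1, with COL1A2 at or near 0 throughout. LUM did not follow the sum, at 1.86 and 1.39 FPKM in WT against 1.81 and 3.79 in ZCCHC4 KO1. Of 5 endothelial markers none did, with sums of at most 0.84 FPKM. Of 6 blood cell markers 4 had a row and 2 reached it, with sums between 16.44 and 19.55 FPKM in all libraries. CD68 was at 14.72 and 16.74 FPKM in WT against 11.9 and 11.71 in ZCCHC4 KO1, and HBA1 at 1.66 and 2.77 against 4.47 and 5.2. Of 6 epithelial markers 3 did, with sums of 5243.62 to 6095.28 FPKM in WT and 7069.52 to 9260.13 in ZCCHC4 KO1. In such bulk libraries fewer cells of a type and less RNA per cell cannot be told apart.

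Within each group, the difference between libraries followed transcript GC content. Genes poor in GC were lower in WT replicate 2 than in WT replicate 1, and higher in ZCCHC4 KO1 replicate 2 than in ZCCHC4 KO1 replicate 1. For 1752 tested genes with a transcript GC content under 40%, the median difference in log2(FPKM + 1) was -0.52 in WT and 0.58 in ZCCHC4 KO1. For the other 8807 genes it was 0.04 and 0.01, but opposite signs met in these medians. Tested genes within 1 percentage point of BNIP3 (41.9% GC) had medians of -0.28 in WT and 0.47 in ZCCHC4 KO1. Those within 1 percentage point of CA9 had 0.14 and -0.21. Over all genes with a GC content, the difference correlated with it at a Spearman coefficient of 0.725 in WT and -0.784 in ZCCHC4 KO1. This matters for the hypoxia genes, since their GC content ran from 39.4% for HIF1A to 59.9% for CA9. A ratio between genes of unlike GC content can move with this trend too, and the ratios below were not corrected for it.

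VEGFA was the single hypoxia gene called, and it was lower in ZCCHC4 KO1 cells. This is 1 of 10 genes lower, where 4.48% of all tested genes were called lower, and 0 of 10 higher, where 1.5% were. At an unadjusted p under 0.05, limma gave 5 of the 10 as lower and 0 as higher, against 13.9% and 8.96% of all tested genes. In 6 of the 10 genes each ZCCHC4 KO1 value was lower than each WT value, as in 28.5% of all tested genes. In 0 of the 10 each one was higher, as in 23.1%. The median log2 fold change was -0.44 over the 10 genes and -0.03 over all tested genes. By role, the median was -0.82 for the 5 genes counted as targets only, -0.29 for the 3 genes of oxygen sensing and -0.09 for the 2 HIF subunits. The genes of oxygen sensing include EGLN1 (-0.49) and EGLN3 (-0.29), which are HIF targets too, so the contrast depends on this grouping. The HIF subunits had opposite signs, 0.34 for HIF1A and -0.53 for EPAS1.

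**Figure D1:**
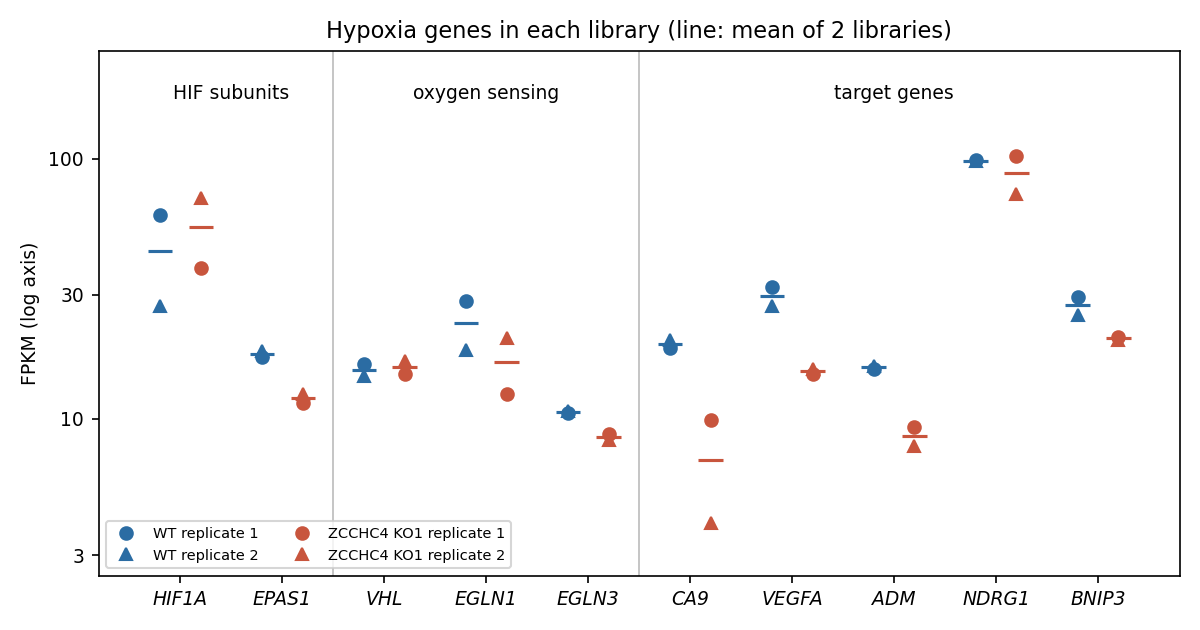
FPKM of the 10 hypoxia genes on a log axis in 2 WT libraries (blue) and 2 ZCCHC4 KO1 libraries (red), with circles for replicate 1, triangles for replicate 2 and a line at each group's mean. For VEGFA both ZCCHC4 KO1 libraries sit near 15 FPKM and both WT libraries at 27.14 or above, whereas the groups overlap for HIF1A.

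The levels spanned about an order of magnitude. In WT cells NDRG1 was the highest, at a mean of 98.4 FPKM, followed by HIF1A (44.1), VEGFA (29.6), BNIP3 (27.4), EGLN1 (23.4), CA9 (19.5), EPAS1 (17.8), ADM (15.8), VHL (15.5) and EGLN3 (10.6). Neighbours from HIF1A down to CA9 overlapped between the 2 WT libraries, as did ADM and VHL. NDRG1 lay apart from HIF1A, CA9 from EPAS1, EPAS1 from ADM and VHL from EGLN3. In ZCCHC4 KO1 cells NDRG1 and HIF1A kept the first 2 places by mean FPKM, VEGFA moved from rank 3 to rank 6 and CA9 from rank 6 to rank 10.

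Of the HIF alpha subunits, HIF1A had the widest spread of the hypoxia genes in WT cells. Its FPKM was 61.04 and 27.21 in WT against 38.14 and 70.77 in ZCCHC4 KO1. The groups overlapped, and each held 1 high and 1 low library, at a log2 fold change of 0.34 (95% interval -0.75 to 1.43, adjusted p = 0.71 from limma). Without WT replicate 2 it was -0.23 and without ZCCHC4 KO1 replicate 2 it was -0.10, so its direction depended on single libraries. Of 896 tested genes within 1 percentage point of its GC content, 15 were as much lower in WT replicate 2 than in WT replicate 1 as HIF1A, or more so. With the GC trend removed, the log2 fold change of HIF1A was 0.49 and was not called.

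EPAS1 encodes the other main alpha subunit, HIF-2 alpha, which drives erythropoietin in the kidney and liver. On chromosome 2 it spans 46297407 to 46386697. It was at 17.31 and 18.24 FPKM in WT against 11.57 and 12.43 in ZCCHC4 KO1. The groups did not overlap, and replicates lay within 1 FPKM of each other. HIF-2 alpha mRNA had a log2 fold change of -0.53 (95% interval -0.92 to -0.14), with an unadjusted p of 0.0166 and an adjusted p of 0.12 from limma. It was called where the GC trend was removed (adjusted p = 0.0176, within a range of 0.0176 to 0.615 over 9 alternatives). The ratio of EPAS1 to HIF1A in FPKM was 0.284 and 0.670 in WT against 0.303 and 0.176 in ZCCHC4 KO1, which overlapped.

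Of the genes of oxygen sensing, none was called. VHL, the substrate receptor that binds hydroxylated HIF alpha, was at 16.26 and 14.69 FPKM in WT against 14.87 and 16.72 in ZCCHC4 KO1. The libraries of the groups interleaved, and the log2 fold change was 0.03 (95% interval -0.38 to 0.43, adjusted p = 0.949 from limma). EGLN1 encodes the prolyl hydroxylase held to be the main oxygen sensor in most cells. It was at 28.33 and 18.45 FPKM in WT against 12.50 and 20.53 in ZCCHC4 KO1, so the higher ZCCHC4 KO1 library lay above the lower WT library. Its log2 fold change was -0.49 (95% interval -1.23 to 0.26, adjusted p = 0.408 from limma), and leaving out 1 library gave values from -0.82 to -0.15. The value of -0.82 was obtained without ZCCHC4 KO1 replicate 2 and was called there (adjusted p = 0.0488). EGLN1 moved between replicates in the directions HIF1A did, although at 46.4% its GC content was higher.

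EGLN3 is a prolyl hydroxylase that is itself induced by HIF, a feedback on the pathway. Its FPKM was 10.58 and 10.69 in WT against 8.72 and 8.34 in ZCCHC4 KO1. Both ZCCHC4 KO1 values were lower and replicates were close, at a log2 fold change of -0.29 (95% interval -0.71 to 0.14, adjusted p = 0.388 from limma). EGLN2, the remaining paralogue, was at 26.09 and 32.93 FPKM in WT against 41.22 and 32.92 in ZCCHC4 KO1, with a log2 fold change of 0.32 that was not called (adjusted p = 0.38 from limma). Within libraries, the ratio of EGLN2 to EGLN1 was 0.921 and 1.78 in WT against 3.30 and 1.60 in ZCCHC4 KO1, and that of EGLN3 to EGLN1 likewise overlapped between the groups.

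Of the targets, VEGFA is the growth factor through which hypoxic tissue recruits vessels. The gene lies on chromosome 6 of GRCh38.p14 from 43770211 to 43786487. Its FPKM was 32.03 and 27.14 in WT against 14.95 and 15.57 in ZCCHC4 KO1. The groups did not overlap, and mean FPKM fell by 48.4%, from 29.6 ± 3.46 to 15.3 ± 0.438 (SD, n = 2 each). The log2 fold change was -0.91 (standard error 0.159, adjusted p = 0.0338 from limma), short of a 2-fold change with an FDR of 0.001. Those are thresholds of the study, applied here to limma and not to its own analysis. By them 8 of 10726 tested genes passed. Over 9 alternatives its log2 fold change ranged from -0.95 to -0.83 and its adjusted p from 0.00509 to 0.083. The call was lost with no filter on low values (adjusted p = 0.0652) and with the replicate number as a block (adjusted p = 0.083), and also without WT replicate 1 (adjusted p = 0.333) or WT replicate 2 (adjusted p = 0.102). Of the 20 nearest tested genes on chromosome 6, 16 had a negative log2 fold change and the median was -0.21, and the part of this in the VEGFA result was not tested. For the other 9 genes the median of the 20 nearest lay between -0.15 and 0.14. VEGFB, a paralogue, was at 41.45 and 43.79 FPKM in WT against 41.36 and 35.28 in ZCCHC4 KO1, and the ratio of VEGFB to VEGFA was 1.29 and 1.61 in WT against 2.77 and 2.27 in ZCCHC4 KO1, without overlap. The tested genes nearest to VEGFA in pattern over the 4 libraries, by Euclidean distance of log2(FPKM + 1) after centring on each gene's mean, were CCDC80 (0.0761) and FKBP7 (0.0792), both at under 4 FPKM. CCDC80 was at 3.35 and 2.87 FPKM in WT against 1.04 and 1.22 in ZCCHC4 KO1. FKBP7 was at 2.04 and 1.78 against 0.48 and 0.56. At such levels the added 1 narrows the change, so this nearness does not mean a like change in FPKM.

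CA9 encodes a carbonic anhydrase on the cell surface that handles the acid of hypoxic cells and is a common marker of hypoxia in tumors. It lies on chromosome 9 from 35673928 to 35681159. Its FPKM was 18.79 and 20.13 in WT against 9.93 and 4.0 in ZCCHC4 KO1. Neither ZCCHC4 KO1 value reached the WT values, but the pair differed from each other more than 2-fold. The log2 fold change of -1.47 was the largest in size among the 10 genes (95% interval -2.39 to -0.55), with an unadjusted p of 0.0081 and an adjusted p of 0.0834 from limma. CA9 was called under 5 of 9 alternatives, with adjusted p from 0.00214 to 0.169. Among the 5 was the replicate block, where limma used only the spread shared over genes, so that of CA9 itself did not enter. With a library left out, its log2 fold change ran from -2.03 without ZCCHC4 KO1 replicate 1 to -0.90 without ZCCHC4 KO1 replicate 2. The difference between the ZCCHC4 KO1 libraries was not of the size found for genes of like GC content. It was -1.13 in log2(FPKM + 1), and 0 of 614 tested genes within 1 percentage point of its GC content had a difference as low, with a median of -0.21. CA12, the other HIF-induced carbonic anhydrase, was at 0.34 to 0.56 FPKM in all libraries and was below the filter.

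ADM, on chromosome 11 from 10305073 to 10307397, encodes adrenomedullin, a peptide that widens vessels. It was at 15.62 and 16.03 FPKM in WT against 9.30 and 7.87 in ZCCHC4 KO1. The groups were apart by more than the spread within either, with means of 15.8 ± 0.290 and 8.59 ± 1.01 (SD, n = 2 each). For ADM the log2 fold change was -0.82 (95% interval -1.25 to -0.38), with an unadjusted p of 0.00388 and an adjusted p of 0.0575 from limma, just outside the threshold. It was called under 3 of 9 alternatives, with adjusted p from 0.00366 with the GC trend removed to 0.269 with the replicate block. Of the adrenomedullin receptor genes, RAMP1 was at or below 0.09 FPKM in every library, and CALCRL, RAMP2 and RAMP3 were not analysed here. ADM2, a related peptide, was at 0.50 to 0.54 FPKM throughout.

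NDRG1, a stress-responsive gene long used as a hypoxia marker, was at 99.00 and 97.74 FPKM in WT against 102.58 and 73.25 in ZCCHC4 KO1. One ZCCHC4 KO1 library was above both WT libraries and one below. NDRG1 had a log2 fold change of -0.18 (95% interval -0.64 to 0.28, adjusted p = 0.63 from limma), and without ZCCHC4 KO1 replicate 2 it was 0.06. Its paralogue NDRG3 was at 18.83 and 20.19 FPKM in WT against 15.41 and 16.73 in ZCCHC4 KO1, and the ratio of NDRG3 to NDRG1 overlapped between the groups.

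BNIP3 encodes a mitochondrial outer membrane protein that tags mitochondria for autophagy. It was at 29.53 and 25.18 FPKM in WT against 20.67 and 20.15 in ZCCHC4 KO1. The groups did not overlap, and the log2 fold change was -0.40 (95% interval -0.78 to -0.02), with an unadjusted p of 0.042 and an adjusted p of 0.199 from limma. With the GC trend removed it was -0.22. BNIP3L, which shares its role, was at 9.88 and 7.24 FPKM in WT against 3.67 and 4.85 in ZCCHC4 KO1, with a log2 fold change of -0.86 that was not called (adjusted p = 0.1 from limma). The ratio of BNIP3L to BNIP3 was 0.335 and 0.288 in WT against 0.178 and 0.241 in ZCCHC4 KO1, again without overlap.

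**Figure D2:**
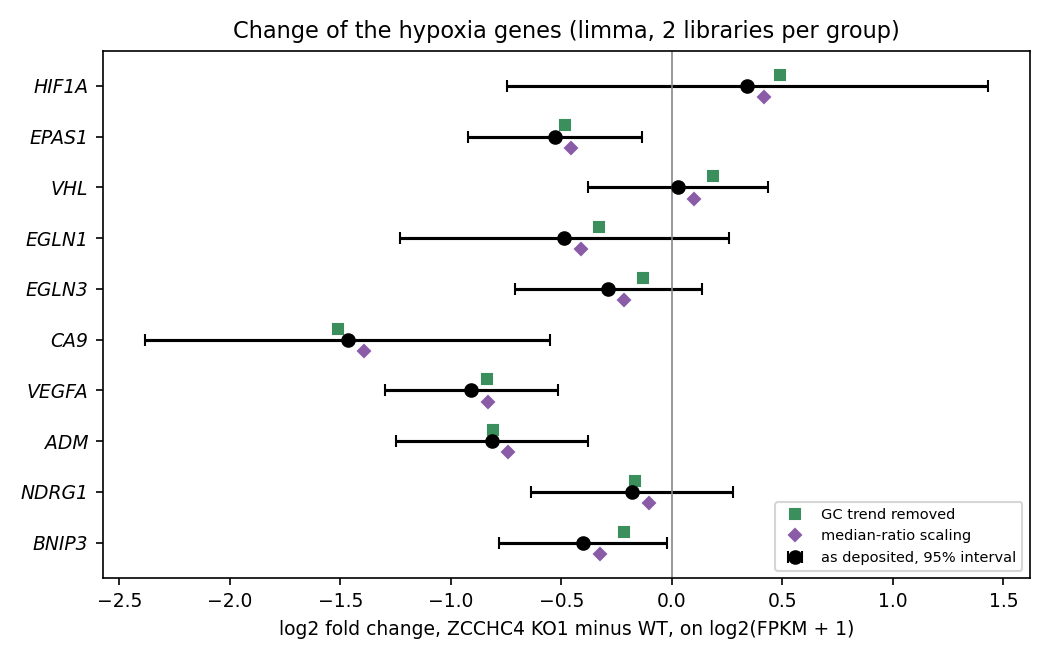
Log2 fold change of each hypoxia gene, ZCCHC4 KO1 minus WT, with its 95% interval from limma (black, 2 libraries per group), after removal of the GC trend (green) and after median-ratio scaling (purple). Estimates for CA9, VEGFA and ADM stay left of -0.7 under all 3, and the intervals of HIF1A, VHL, EGLN1, EGLN3 and NDRG1 include 0.

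Replicates differed unequally among the 10 genes. In the plot of replicate differences, HIF1A and EGLN1 lay at the edge of the cloud of genes in both groups, and CA9 lay outside it in ZCCHC4 KO1. Of 736 tested genes within 1 percentage point of the GC content of EGLN1, 14 had a difference as low or lower in WT. In ZCCHC4 KO1, 22 of them had a difference as high or higher. For HIF1A in ZCCHC4 KO1, 36 of 896 genes of like GC content had one as high or higher. NDRG1 and VEGFA lay near the edge in 1 group each. For NDRG1 in ZCCHC4 KO1, 16 of 604 genes of like GC content had a difference as low or lower, and for VEGFA in WT 30 of 662. EPAS1, VHL, EGLN3, ADM and BNIP3 differed between replicates by at most 0.22 in size on the log2 scale in either group. With the GC trend removed from each library, 4 of the 10 genes were called lower (EPAS1, CA9, VEGFA and ADM), and 0 higher. Of 10559 tested genes, 13.9% were called lower and 13% higher.

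**Figure D3:**
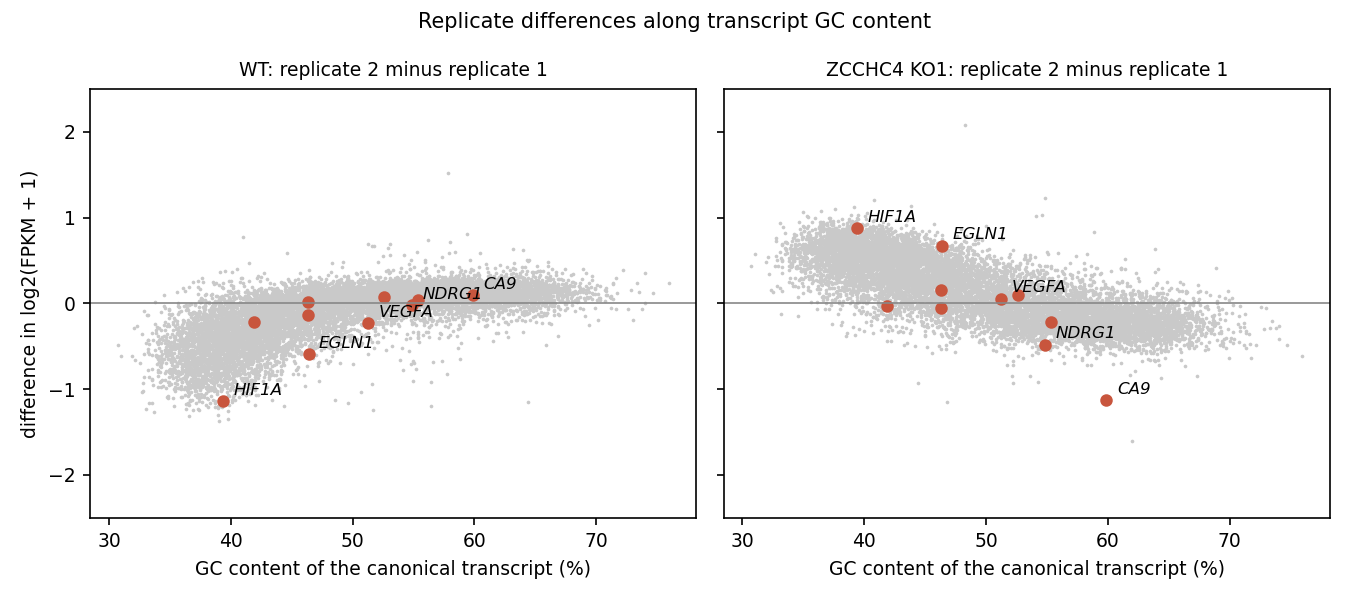
Difference in log2(FPKM + 1) between replicate 2 and replicate 1 against the GC content of the canonical transcript, for WT (left) and ZCCHC4 KO1 (right), with 10559 tested genes in grey, of which 1 lies beyond the axis, and the hypoxia genes in red. Genes poor in GC sit below 0 in WT and above 0 in ZCCHC4 KO1, HIF1A is at -1.14 and 0.87, and CA9 is at 0.09 and -1.13.

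The wider pathway was followed through 6 lists of 91 further genes, of which 86 had a row and 73 were tested. The lists were chosen with earlier results of these data known, so their counts beside all tested genes are not an independent comparison. Of the 73, limma called 7 lower and 1 higher, where 4.48% and 1.5% of all tested genes were called. The median log2 fold change of the 73 was -0.16, and in 33 of them each ZCCHC4 KO1 value was lower than each WT value, against 13 with each one higher, where 28.5% and 23.1% of all tested genes were so placed. Among HIF subunits and partners 0 of 5 tested genes were called, with 1 lower and 1 higher at an unadjusted p under 0.05. These were CITED4, at 46.42 and 50.91 FPKM in WT against 32.27 and 27.88 in ZCCHC4 KO1 (adjusted p = 0.0582 from limma), and CITED2, at 15.72 and 14.18 in WT against 21.49 and 22.66 in ZCCHC4 KO1 (adjusted p = 0.111 from limma). CITED2 is a HIF-induced protein that competes with HIF for its coactivators. ARNT, the constitutive partner of the alpha subunits, named after its values were seen, was at 16.15 and 14.40 FPKM in WT against 11.07 and 14.02 in ZCCHC4 KO1 and was not called.

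Of 10 genes of oxygen sensing and HIF degradation, 1 was lower and 0 higher. It was OS9, a lectin of the endoplasmic reticulum that was also described as a partner of HIF1A and the prolyl hydroxylases, at 46.07 and 50.20 FPKM in WT against 27.71 and 29.71 in ZCCHC4 KO1 (adjusted p = 0.0413 from limma). The median of this list was -0.02, close to that of all tested genes. The call of OS9 held under 5 of 9 alternatives, with adjusted p from 0.00473 to 0.16 from limma. It was lost with no filter, with median-ratio scaling, with eBayes without a trend and with the replicate block. Leaving out a library gave log2 fold changes from -0.79 to -0.66.

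Of 20 targets in glucose use, 2 were lower and 0 higher, at a median of -0.13. SLC2A3, a high-affinity glucose transporter, was at 28.43 and 26.82 FPKM in WT against 0.17 and 0.15 in ZCCHC4 KO1 (log2 fold change -4.62, adjusted p = 0.000646 from limma). PFKL, the liver type of phosphofructokinase, was at 38.02 and 43.71 FPKM in WT against 22.85 and 19.18 in ZCCHC4 KO1 (adjusted p = 0.0337 from limma). That call was lost with no filter (adjusted p = 0.0715), without WT replicate 1 (0.06) and without WT replicate 2 (0.208), with the adjusted p between 0.00102 and 0.0715 over 9 alternatives. The other 18 were not called. Apart from SLC2A3, the log2 fold changes of the list ran from -0.93 to 0.26.

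Of 7 tested targets in vessel growth and tone, 1 was lower and 0 higher, at a median of -0.15. This was CXCR4, a chemokine receptor, at 41.36 and 39.56 FPKM in WT against 0.18 and 0.09 in ZCCHC4 KO1 (log2 fold change -5.19, adjusted p = 0.000523 from limma). With ZCCHC4 KO1 values so near 0 the size depends on the pseudocount, and a pseudocount of 0.1 gave -7.46 for CXCR4 and -6.74 for SLC2A3 on the log2 scale. SLC2A3 and CXCR4 were the 2 genes of the 6 lists that also passed an FDR of 0.001 with a 2-fold change, as 0.0746% of all tested genes did. Of the 10 hypoxia genes 0 did, with 5 at an unadjusted p under 0.05 from limma.

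Of 9 tested targets in matrix, 2 were lower and 0 higher, and the list had the lowest median, at -0.63. LOXL2, which crosslinks collagen, was at 88.87 and 96.62 FPKM in WT against 38.35 and 34.68 in ZCCHC4 KO1 (log2 fold change -1.32, adjusted p = 0.00897 from limma). PLAUR, the urokinase receptor, was at 40.75 and 40.25 FPKM in WT against 22.60 and 19.03 in ZCCHC4 KO1 (adjusted p = 0.028 from limma). PLAUR was likewise not called with no filter (adjusted p = 0.0581), without WT replicate 1 (0.128) or without WT replicate 2 (0.115), with a range of 0.00179 to 0.0581 over 9 alternatives. The summed fibroblast markers given above, LUM apart, were lower in the same libraries, and their part in these values was not tested.

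Of 22 further targets, 1 was lower and 1 higher, at a median of -0.17. BHLHE40, a transcriptional repressor of the clock and of hypoxia, was at 38.79 and 39.11 FPKM in WT against 12.98 and 16.47 in ZCCHC4 KO1 (log2 fold change -1.35, adjusted p = 0.0149 from limma). HMOX1, heme oxygenase, which answers to oxidative stress as well as to HIF, was at 9.41 and 11.53 FPKM in WT against 34.50 and 31.08 in ZCCHC4 KO1 (log2 fold change 1.56, adjusted p = 0.0113 from limma). It was the single gene called higher among the hypoxia genes and the 6 lists.

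**Figure D4:**
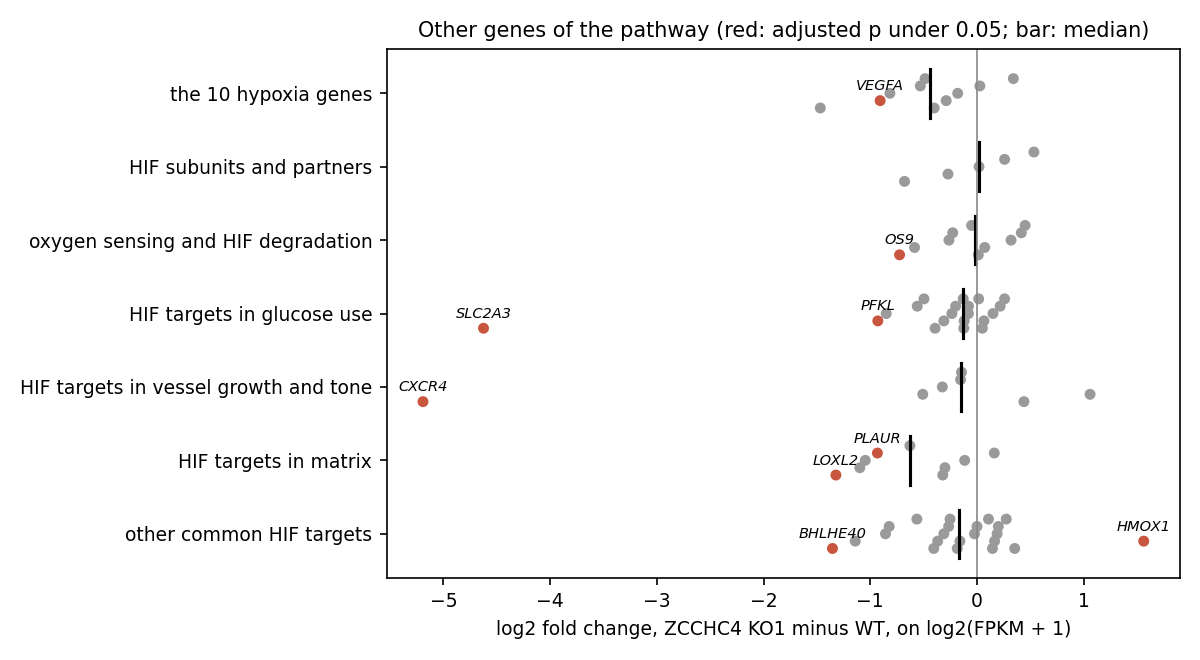
Log2 fold change, ZCCHC4 KO1 minus WT, of the 10 hypoxia genes and of the tested genes of 6 lists of the HIF pathway, 1 point per gene, with red for an adjusted p under 0.05 from limma and a bar at each list's median. SLC2A3 and CXCR4 lie beyond -4.5 and HMOX1 at 1.56, while the medians lie between -0.63 and 0.02.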

How the data were processed

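The members, lists and tests were chosen with earlier results of these data known. RNA-seq was compared between 2 WT and 2 ZCCHC4 KO1 libraries, grouped by sample title. The authors aligned reads to GRCh38 with Bowtie2 and deposited FPKM values estimated with RSEM, 1 column per library. Versions, annotation and read filters are not given in the sources used here. The supplement names BGISEQ-500 and the labels Illumina HiSeq. FPKM carries no read totals, so no depth and no counting error can be stated. FPKM is relative, so a change in a few abundant genes shifts all others.

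RefSeq for GRCh38.p14 gave symbols and positions (16384 of 16658 genes), and transcript GC content from the Ensembl canonical transcript in GENCODE v44 (98.4% of tested genes). Log2(FPKM + 1) was tested with limma 3.58.1 in R 4.3.3 (lmFit, eBayes with a trend, two-sided, Benjamini-Hochberg over all tested genes). The filter was an FPKM of 1 in at least 2 libraries. The script was tested on simulated data. The smallest two-sided p an exact permutation test allows for 2 against 2 libraries is 0.333, so none was used. The GC trend was removed per library with a natural spline of 4 degrees of freedom. Columns without a sample numbered 0.

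Besides ZCCHC4 and the 10 members, the genes named were up to 4 called genes with the smallest p in each list, or the 2 with the highest mean FPKM where a list had none, the paralogues set in ratios, and the 2 genes nearest in pattern to up to 3 called members. Alternatives were a pseudocount of 0.1, no filter, a minimum FPKM of 5, median-ratio scaling, eBayes without a trend, quantile normalization, the replicate block, GC removal, both together, the stricter thresholds, and leaving out each library.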

Additional observations from a re-analysis of the deposited data

How the results depend on the processing

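FPKM values show no depth, and 2 libraries per group set the precision. With 1 library left in a group, limma assumes that it varies like the others. Without either WT library, and with the replicate block, limma used only the spread shared over genes and not a gene's own. Against 1 hypoxia gene called lower, there were 0 at the stricter thresholds and 0 with no filter, 2 with a minimum FPKM of 5, 2 with quantile normalization, 2 with median-ratio scaling, 4 with the GC trend removed, and from 1 to 4 when a library was left out. The single gene called differed, since without either WT library it was CA9 and not VEGFA, and the 4 were reached without ZCCHC4 KO1 replicate 2. The number called higher was 0 under every one of these alternatives. Of all tested genes, the share called lower was 4.48%, against 1.57% with no filter, 5.17% with a minimum FPKM of 5, 6.72% with quantile normalization, 6.19% with median-ratio scaling, 13.9% with the GC trend removed, and 2.55% (without WT replicate 1) to 9.67% (without ZCCHC4 KO1 replicate 2). The share called higher was 1.5%, against 0.492% with no filter, 4.34% with quantile normalization, 3.23% with median-ratio scaling and 13% after GC removal. Of the pathway genes, 1 higher and 7 lower became 0 and 2 at the stricter thresholds and 1 and 4 with no filter. They became 2 and 14 with quantile normalization, 2 and 12 with median-ratio scaling and 4 and 19 with the GC trend removed. Leaving out a library gave from 1 to 3 higher and from 4 (without WT replicate 1) to 13 lower (without ZCCHC4 KO1 replicate 2). The log2 fold change of ZCCHC4 was not called with a pseudocount of 0.1 (-1.92, adjusted p = 0.0551 from limma) or with no filter (-1.48, adjusted p = 0.115), within a range of 0.000458 to 0.115 over 9 alternatives, and leaving out a library gave from -1.81 to -1.15, the latter not called without ZCCHC4 KO1 replicate 1. Directions turned for HIF1A (-0.23 without WT replicate 2, -0.10 without ZCCHC4 KO1 replicate 2), VHL (-0.042 and -0.052 without the same libraries) and NDRG1 (0.060 without ZCCHC4 KO1 replicate 2). With each library left out, HIF1A ranged up to 0.91, VHL up to 0.11 and NDRG1 down to -0.42. Of 260 values of the 20 genes named besides ZCCHC4, 215 kept direction and side of the threshold, 23 became called, 17 lost a call and 5 turned. The cause was not tested.

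The labels share only replicate numbers. Across genes, which are not independent replicates, the replicate differences of the groups correlated at a Pearson r of -0.787, and at -0.570 with the GC trend removed, so equal numbers were not taken as pairs. With the replicate block, which called 3.31% of all tested genes lower and 0.998% higher, 1 hypoxia gene was lower (CA9 in place of VEGFA). So were 7 pathway genes, with 1 higher. With the replicate block and the GC trend removed, 3 hypoxia genes were lower, and 15 pathway genes lower and 3 higher, against 9.01% and 6.35% of all tested genes. A crossed pairing, chosen after seeing the data, called 7 hypoxia genes lower and 1 higher, and 31 pathway genes lower and 8 higher, against 27.8% and 21.5% of all tested genes.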
